A study of Canis lupus familiaris with 25 samples.

Results

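Matrix-remodeling proteases and their inhibitors were examined in canine perianal tumors through all genes of the deposited count table named as matrix metalloproteinases (MMP), as secreted proteases with thrombospondin repeats (ADAMTS), or as tissue inhibitors of metalloproteinases (TIMP1 to TIMP4). The symbol pattern selected 42 of 24532 genes, made up of 19 MMP, 19 ADAMTS and 4 TIMP genes. No measured value entered the selection. The samples were formalin-fixed, paraffin-embedded (FFPE) archival tumors of pet dogs. The groups were 10 benign hepatoid gland adenomas (HGA) from dogs aged 8 to 14 years, 11 primary apocrine gland anal sac adenocarcinomas (AGASAC) from dogs aged 8 to 12.5 years, and 4 metastases in the sublumbal lymph nodes of the dogs that carried primary AGASAC 1 to 4. Both sexes were present in each group, with 5 females among the HGA and 5 among the primary AGASAC. No treatment is labelled, and almost every dog of a group has its own breed label. According to the paper, tissue next to the tumor was removed so that the material was largely homogeneous tumor. RNA came from scrolls of entire cross sections and was sequenced with QuantSeq 3′, which reads a short fragment at the 3′ end of each polyadenylated transcript.

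MMPs and ADAMTS proteases are zinc-dependent enzymes that cut the proteins outside the cell. Collagenases and the membrane-bound MMP14 cleave fibrillar collagen, gelatinases degrade unwound collagen and basement membrane, and matrilysin is made by glandular epithelium. Among the ADAMTS proteases, a group around ADAMTS1, ADAMTS4 and ADAMTS5 cuts proteoglycans such as versican and aggrecan, whereas ADAMTS2, ADAMTS3 and ADAMTS14 remove the amino-terminal propeptide of procollagens. TIMPs bind and block the active enzymes, so RNA levels say nothing about how much protease is active. In tumors these genes are transcribed by stromal, immune and tumor cells alike, and in bulk tissue fewer cells of a type and less RNA per cell cannot be told apart.

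Between 1562347 and 6389555 reads were counted per library in HGA, 2581453 to 4218340 in primary AGASAC and 2857541 to 3289546 in metastases. By library size alone, 1 read was thus worth 0.157 to 0.640 CPM, the read count scaled to a common library size. The levels given below are scaled by TMM factors as well, which shift these limits somewhat. The DV200, the percentage of RNA fragments above a set length, was 70.5 to 92.7 in HGA, 70.2 to 84.4 in primary AGASAC and 71.8 to 82.9 in metastases. Markers of both gland tumors, chosen with earlier results of these data known, separated the labelled groups. They are therefore no independent check of the labels. The summed level of 4 glandular genes (KRT8, KRT18, KRT19 and PIP) was 0 to 34.0 CPM in HGA and 3323 to 8608 CPM in all AGASAC samples, while 4 basal and sebaceous genes (KRT5, KRT14, KRT79 and CIDEA) summed to 4478 to 17737 CPM in HGA and at most 23.4 CPM in AGASAC. Of the 12 fibroblast markers tested, 0 were called in any of the 3 comparisons. Their sum ranged from 1390 to 6097 CPM in HGA and from 1081 to 8453 CPM in primary AGASAC. Some markers of other cell types were called between HGA and primary AGASAC, where 25.1% of all 12070 genes tested were called. Of 6 endothelial markers tested, 2 were called higher in HGA (summed list 214 to 591 CPM against 55.2 to 243 CPM), and all 6 had a positive log2 fold change. Of 6 smooth muscle markers tested, 2 were called higher in HGA, but 3 had a positive and 3 a negative log2 fold change. Of 7 macrophage markers tested, 1 (C1QB) was called lower in HGA, and 6 had a negative log2 fold change. The skeletal muscle actin ACTA1 was called lower in HGA. The skeletal muscle list summed to 4.08 to 746 CPM in primary AGASAC, 0.436 to 25.6 CPM in HGA and 0.319 to 1.59 CPM in metastases. The part of these cell types in the results below was not tested. Only the fibroblast sum was related to gene levels, within each tumor type. Such relations do not measure its part in a difference between tumors.

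The repertoire was dominated by few genes. In each library 22 to 36 of the 42 genes had at least 1 read in HGA, 25 to 35 in primary AGASAC and 26 to 32 in metastases. MMP14, MMP15, TIMP1, ADAMTS2 and MMP2 had the highest mean levels over the 25 samples, at 154, 63.4, 120, 44.8 and 29.95 CPM. As QuantSeq counts 3′ ends, these levels are reads per transcript end and are not scaled to gene length. At the other end, MMP3, MMP8, MMP27, ADAMTS8, ADAMTS14, ADAMTS15, ADAMTS18, ADAMTS19 and ADAMTS20 gathered 3 to 25 reads each over all libraries. Of the 8 that had a read in HGA or primary AGASAC, 0 were called between these groups when edgeR was run without a filter on low counts, with the lowest adjusted p at 0.057 for ADAMTS18 (unadjusted p = 0.0010). The collagenases were nearly silent as well. MMP1, the interstitial collagenase and the highest of them by mean, had 0 reads in 9 of 10 HGA and in 7 of 11 primary AGASAC, and the summed level of MMP1, MMP8 and MMP13 did not exceed 4.204 CPM in any HGA, 10.8 CPM in any primary AGASAC and 19.3 CPM in any metastasis.

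The first comparison asked how the benign and the malignant gland tumor differed. A gene was called when its Benjamini-Yekutieli adjusted p in edgeR's quasi-likelihood test was at most 0.05 and its log2 fold change was at least 1 or at most −1. Of the 42 genes, 19 passed the filter on low counts, and 6 of these 19 were called, 3 higher in HGA (MMP14, ADAMTS1 and ADAMTS3) and 3 lower (MMP15, ADAMTS4 and TIMP1). Among all 12070 genes tested, 25.1% were called, 12.6% as higher and 12.5% as lower in HGA, so the share among the protease and inhibitor genes was close to that of the whole transcriptome. The median log2 fold change of the 19 genes was −0.39, against −0.03 for all genes tested. Without TMM factors the median moved to −0.71 for the 19 genes and to −0.33 for all genes, and the split of calls over all genes from 1523 higher and 1509 lower to 1053 higher and 2156 lower, and all 6 genes were called in the same direction. DESeq2, run without that filter, called 13 of the 42 genes, among them the same 6, against 18.5% of all genes. The ranges of both groups did not overlap for 3 of the 19 (MMP14, MMP15 and ADAMTS3), and 9.24% of all genes tested showed no overlap.

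**Figure D1:**
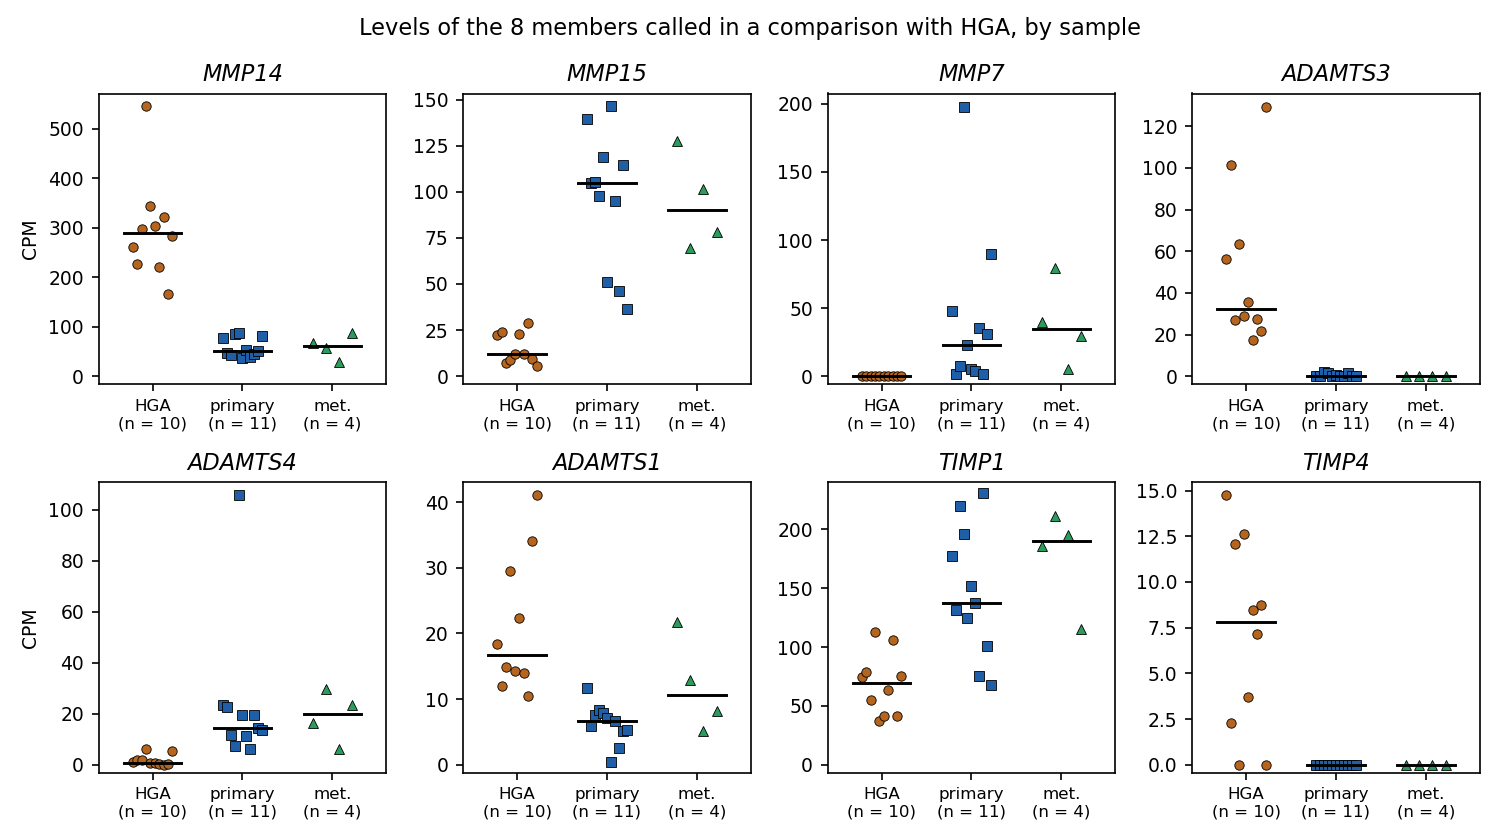
Level in CPM (y axes, linear, each panel with its own scale) of the 8 genes called in a comparison with HGA, with 1 point for each sample and a black line at the group median. MMP14 and ADAMTS3 are high in all 10 HGA, MMP15 in all 15 AGASAC samples, and MMP7 is at 0 in every HGA, while TIMP4 is at 0 in every AGASAC sample.

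The membrane-type MMPs, which sit on the cell surface, showed a reciprocal pattern. MMP14, which cleaves fibrillar collagen and activates the MMP2 proenzyme, was the most abundant MMP in HGA, with 167 CPM in the lowest sample, a median of 290 CPM and 546 CPM in the highest. In primary AGASAC it reached 36.5, 50.6 and 86.6 CPM at the same points. Every HGA thus lay above every primary AGASAC, with a log2 fold change of 2.35 ± 0.21 (SE; edgeR, adjusted p = 5.3e-08). Its close relative MMP15 ran the other way, at 5.68 CPM in the lowest HGA, 12.1 CPM at the median and 29.01 CPM in the highest, against 36.2, 105 and 146 CPM in primary AGASAC. Again the groups did not overlap, and MMP15 was lower in HGA by a log2 fold change of −2.63 ± 0.31 (edgeR, adjusted p = 3.0e-06).

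Taken within each sample, the MMP14 to MMP15 ratio of CPM was 9.42 to 62.1 in HGA, with a median of 18.2, and 0.359 to 2.24 in primary AGASAC, with a median of 0.550. MMP14 contributed 61.3 to 85.0% of all MMP reads in HGA and 16.2 to 27.7% in primary AGASAC. MMP14 was below MMP15 in 10 of 11 primary AGASAC, and the exception was primary AGASAC 11, which had the lowest MMP15 level of its group. The other membrane-type genes were weakly expressed. MMP16, MMP17 and MMP25, the last of which is known from leukocytes, had group medians between 1.29 and 7.78 CPM in HGA and primary AGASAC, and 0 of these 3 were called.

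**Figure D2:**
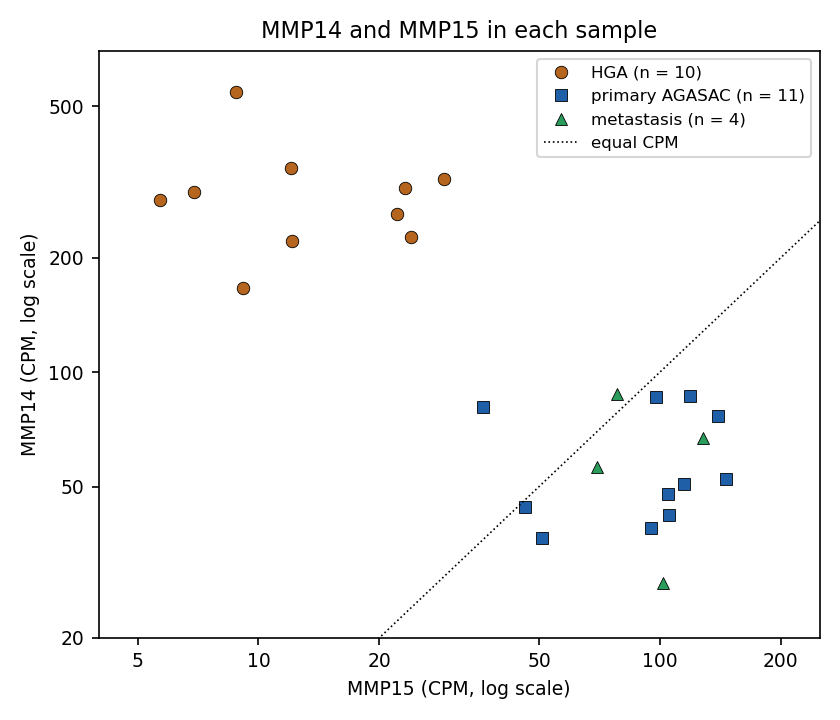
MMP14 (y axis) against MMP15 (x axis) in CPM, both on log scales, with 1 point for each of the 25 samples and a dotted line at equal CPM. The 10 HGA form a group of their own at MMP14 levels of 167 to 546 CPM and MMP15 levels of at most 29.01 CPM. The 4 metastases lie within the MMP15 range of primary AGASAC. In MMP14, metastasis 3 (27.9 CPM) lies below and metastasis 4 (87.8 CPM) just above the primary AGASAC, which span 36.5 to 86.6 CPM.

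Among the procollagen N-proteinases, ADAMTS3 carried the largest fold change of all the tested protease and inhibitor genes. It was read 17.6 to 129 CPM in HGA, with a median of 32.5 CPM, while 5 of 11 primary AGASAC had 0 reads and the highest had 2.05 CPM. All HGA exceeded all primary AGASAC, and the log2 fold change was 6.37 ± 0.59 (edgeR, adjusted p = 7.0e-08). ADAMTS3 is also known to activate the lymphatic growth factor VEGFC. Its relative ADAMTS2, the main N-proteinase of type I procollagen, was present in both tumors, with 14.4 to 112 CPM in HGA and 12.0 to 57.0 CPM in primary AGASAC, and was not called (log2 fold change 0.82 ± 0.29, adjusted p = 0.24). ADAMTS3 accordingly made up 19.4 to 85.8% of the N-proteinase reads in HGA and at most 5.15% in primary AGASAC. ADAMTS14 had 0 reads in 7 of 10 HGA and in 9 of 11 primary AGASAC.

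The proteoglycan-cleaving ADAMTS genes did not move together. ADAMTS4, known as aggrecanase-1, was at 0 to 6.27 CPM in HGA with a median of 0.756 CPM, and at 5.98 to 106 CPM in primary AGASAC with a median of 14.2 CPM. The ranges touched only at their edges, and ADAMTS4 was lower in HGA by a log2 fold change of −3.78 ± 0.64 (edgeR, adjusted p = 3.4e-04). Primary AGASAC 5 held the highest ADAMTS4 level, and no other primary AGASAC exceeded 23.3 CPM. ADAMTS1, an early described versican-cleaving member, went in the opposite direction, with 10.5, 16.6 and 41.0 CPM as lowest, median and highest HGA values and 0.347, 6.65 and 11.7 CPM in primary AGASAC (log2 fold change 1.75 ± 0.36, adjusted p = 0.0028). Only the lower edge of HGA and the upper edge of primary AGASAC overlapped. ADAMTS5, the second aggrecanase, was the most abundant of this group by mean, at 2.31 to 53.3 CPM in HGA and 21.9 to 60.8 CPM in primary AGASAC, and was not called (−0.79 ± 0.37, adjusted p = 0.79).

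Of the remaining ADAMTS genes, ADAMTS10, which binds fibrillin microfibrils, was the most abundant. It reached 3.23 to 31.4 CPM in HGA with a median of 10.4 CPM, and 12.7 to 52.1 CPM in primary AGASAC with a median of 27.8 CPM. The ranges overlapped widely and the gene stayed just outside the threshold (log2 fold change −1.21 ± 0.36, adjusted p = 0.071).

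Of the 3 inhibitors tested, TIMP1 was lower in HGA and TIMP2 and TIMP3 were not called. Summed TIMP reads, which were not tested, overlapped between the groups, at 58.5 to 157 CPM in HGA with a median of 104 CPM, and at 97.6 to 264 CPM in primary AGASAC with a median of 201 CPM. TIMP1, a secreted inhibitor of most MMPs, supplied 45.0 to 87.8% of this sum in HGA and 62.0 to 88.7% in primary AGASAC. Its level was 36.8, 69.3 and 113 CPM in the lowest, median and highest HGA and 67.4, 137 and 231 CPM in primary AGASAC. The ranges overlapped, and TIMP1 was lower in HGA by a log2 fold change of −1.10 ± 0.25 (edgeR, adjusted p = 0.0076), a value close to the fold threshold. TIMP2, which also takes part in MMP2 activation at the cell surface, was at 0.436 to 23.5 CPM in HGA and 13.2 to 61.2 CPM in primary AGASAC and was not called (−1.49 ± 0.43, adjusted p = 0.062). TIMP3, which is bound to the matrix and also inhibits ADAMTS proteases, lay at a median of 20.96 CPM in HGA and 18.7 CPM in primary AGASAC, with a log2 fold change of −0.01 ± 0.29.

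Of the gelatinases and stromelysins, often examined in invasive tumors, MMP2 and MMP11 were tested and not called, while MMP9 and MMP3 did not enter the test. MMP2, or gelatinase A, was at 6.99 to 78.3 CPM in HGA and 4.48 to 43.4 CPM in primary AGASAC (0.50 ± 0.36, adjusted p = 1). MMP11, known from tumor-associated fibroblasts, was at 1.02 to 16.9 CPM and 1.33 to 30.1 CPM (−0.47 ± 0.48, adjusted p = 1). MMP19, the highest by mean of the remaining MMPs, was at 0 to 26.8 CPM and 2.06 to 10.8 CPM (0.81 ± 0.54, adjusted p = 1). For these 3 genes the groups overlapped over most of their range.

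**Figure D3:**
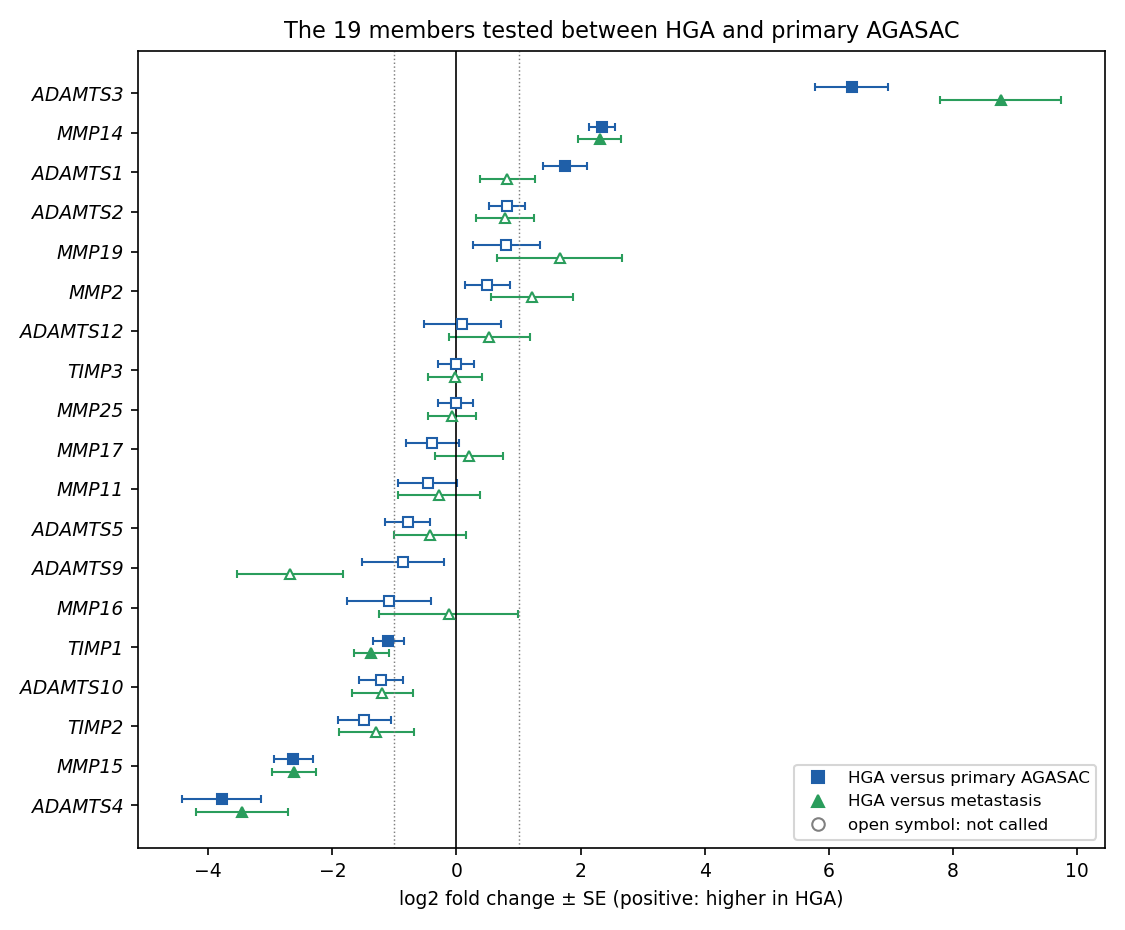
Log2 fold change ± SE (x axis; positive values are higher in HGA) of the 19 genes tested between HGA and primary AGASAC, with squares for primary AGASAC and triangles for metastases as the second group; filled symbols were called, and dotted lines mark a fold change of 1 and −1 on the log2 scale. Both comparisons share the 10 HGA, and 5 genes (ADAMTS3, MMP14, TIMP1, MMP15 and ADAMTS4) are filled in both.

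The other 23 genes were removed by the low-count filter in this comparison, and 6 of them were read in HGA only or in primary AGASAC only. MMP7, the matrilysin of glandular epithelium, had 0 reads in all 10 HGA and 1583 reads over all 11 primary AGASAC, at 1.62 CPM in the lowest, 22.7 CPM at the median and 198 CPM in the highest sample. Set against a floor of 3 counts in each HGA library, its mean in primary AGASAC was at least 32.1-fold higher, and at least 19.6-fold higher without primary AGASAC 4. TIMP4, an inhibitor of narrow tissue distribution, showed the reverse, with 0 reads in all 11 primary AGASAC and 2.31 to 14.7 CPM in 8 of 10 HGA, whereas HGA 4 and HGA 10 had 0 reads. Its mean in HGA was at least 7.51-fold higher than the same floor in primary AGASAC. MMP24, a membrane-type MMP best known from the nervous system and singled out here after its values were seen, had 0 reads in all primary AGASAC and 1 to 15 reads in 9 of 10 HGA, a mean at least 2.65-fold higher. The other genes of this kind had few reads, with 16 reads of MMP21 in 5 primary AGASAC and 0 in HGA, and 17 reads of ADAMTS18 in 5 HGA and 3 of ADAMTS15 in 2 HGA against 0 in primary AGASAC. When edgeR was run without the filter, MMP7, TIMP4 and MMP24 were called together with the 6 named above (adjusted p = 3.7e-04, 5.6e-04 and 9.3e-04), among 16.2% of all genes so tested, and the other 19 genes with a read were not. MMP8, the neutrophil collagenase, had 0 reads in both groups.

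RNA extraction batches, given in the study's supplement, held both tumors in batches 5, 6 and 8 with 2 or 3 samples of each. Within them, the log2 fold change of MMP14 was 2.87, 2.18 and 1.91, and that of MMP15 was −2.67, −1.92 and −2.76. ADAMTS3 gave 4.78, 6.06 and 7.57, ADAMTS4 gave −2.74, −3.56 and −6.61, TIMP1 gave −1.20, −1.45 and −1.44, and ADAMTS1 gave 2.76, 0.95 and 1.11. Every called gene thus kept its direction in all 3 batches, although at these sizes only ADAMTS3 was called, in batches 6 and 8, where 2.12%, 4.84% and 2.46% of all genes were called in the 3 batches. The names of the sequencing files fall into 2 series whose meaning is not stated, and 9 of 10 HGA are in one series against 3 of 11 primary AGASAC. Within that series 6 of 22 genes tested were called, against 16.1% of all 13433 genes, with TIMP4 in place of ADAMTS1 (1.16 ± 0.43, adjusted p = 0.53).

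The second comparison asked whether the lymph node metastases differed from the primary AGASAC of the same dogs, with 4 samples of each. The samples of a dog were not paired in the main fit. Log2 fold changes, intervals and p-values of this comparison are thus unpaired, except where the dog is named as a block. Of the 42 genes, 17 passed the filter and 0 were called, where edgeR called 0% of all 12629 genes tested. Changes of moderate size can be missed at this sample size. On simulated data for this comparison, edgeR called 26 of 100 genes changed by a log2 fold change of 2 and 87 of 100 changed by 4. At an unadjusted p under 0.05, edgeR counted 0 of the 17 genes and 145 of all genes, and DESeq2 called 5 genes (0.0226%), with 0 protease or inhibitor genes among them. With the dog as a block, 1 gene of the table (0.00792%) was called, again outside the set.

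MMP14 and MMP15, the membrane-type pair, were not called. MMP14 in dogs 1 to 4 was 76.8, 47.8, 42.2 and 86.0 CPM in the primary tumor and 67.0, 56.4, 27.9 and 87.8 CPM in the metastasis (log2 fold change −0.08, approximate 95% interval −0.80 to 0.64). MMP15 was 140, 105, 105 and 97.9 CPM in the primary tumor and 128, 69.6, 102 and 78.3 CPM in the metastasis, lower in all 4 dogs and by the most in dog 2 (−0.25, interval −0.69 to 0.19). TIMP1 was 177, 132, 220 and 196 CPM in the primary tumor and 186, 211, 195 and 116 CPM in the metastasis (−0.03, interval −0.52 to 0.45). All 3 intervals lie between −1 and 1, the fold threshold.

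MMP7 and MMP2 differed in direction between dogs. MMP7 was 48.1, 1.62, 7.61 and 198 CPM in the primary tumors of dogs 1 to 4 and 39.6, 79.6, 5.08 and 29.5 CPM in their metastases, so that dog 2 gained and dog 4 lost reads (−0.74, interval −3.09 to 1.61). MMP2 was 4.48, 24.7, 28.98 and 43.4 CPM in the primary tumors and 5.42, 45.3, 4.76 and 9.19 CPM in the metastases. Metastasis 2 stood alone with a high level, while dogs 3 and 4 had less in the node (−0.63, interval −2.28 to 1.02). ADAMTS9, a proteoglycan-cleaving protease that was singled out after its values were seen, was 0.299, 2.92, 2.34 and 26.8 CPM in the primary tumors and 0, 5.80, 6.67 and 128 CPM in the metastases. It was higher in the metastasis in 3 of 4 dogs, while dog 1 went from 1 read to 0. The block on dog gave 1.62 ± 0.41 on the log2 scale (edgeR, unadjusted p = 0.0051, adjusted p = 1). ADAMTS9 was the only one of the 17 genes with an unadjusted p under 0.05 in that fit, where 491 of all 12629 genes had one. The summed lymphoid markers, a check for node tissue, were 59.3, 51.1, 67.3 and 53.6 CPM in metastases 1 to 4 and 60.1, 33.5, 26.1 and 44.8 CPM in their primary tumors. They were higher in the metastasis in 3 of 4 dogs. Of the 7 lymphoid markers tested, 0 were called and 6 had a positive log2 fold change, with a median of 0.56 against 0.0019 for all genes, and the T cell marker CD3E averaged 10.8 CPM in metastases and 4.77 CPM in primary tumors (edgeR, unadjusted p = 0.0095, adjusted p = 1). The part of lymphoid tissue in these differences was not tested. The summed fibroblast markers of the metastases spread from 797 to 13621 CPM.

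**Figure D4:**
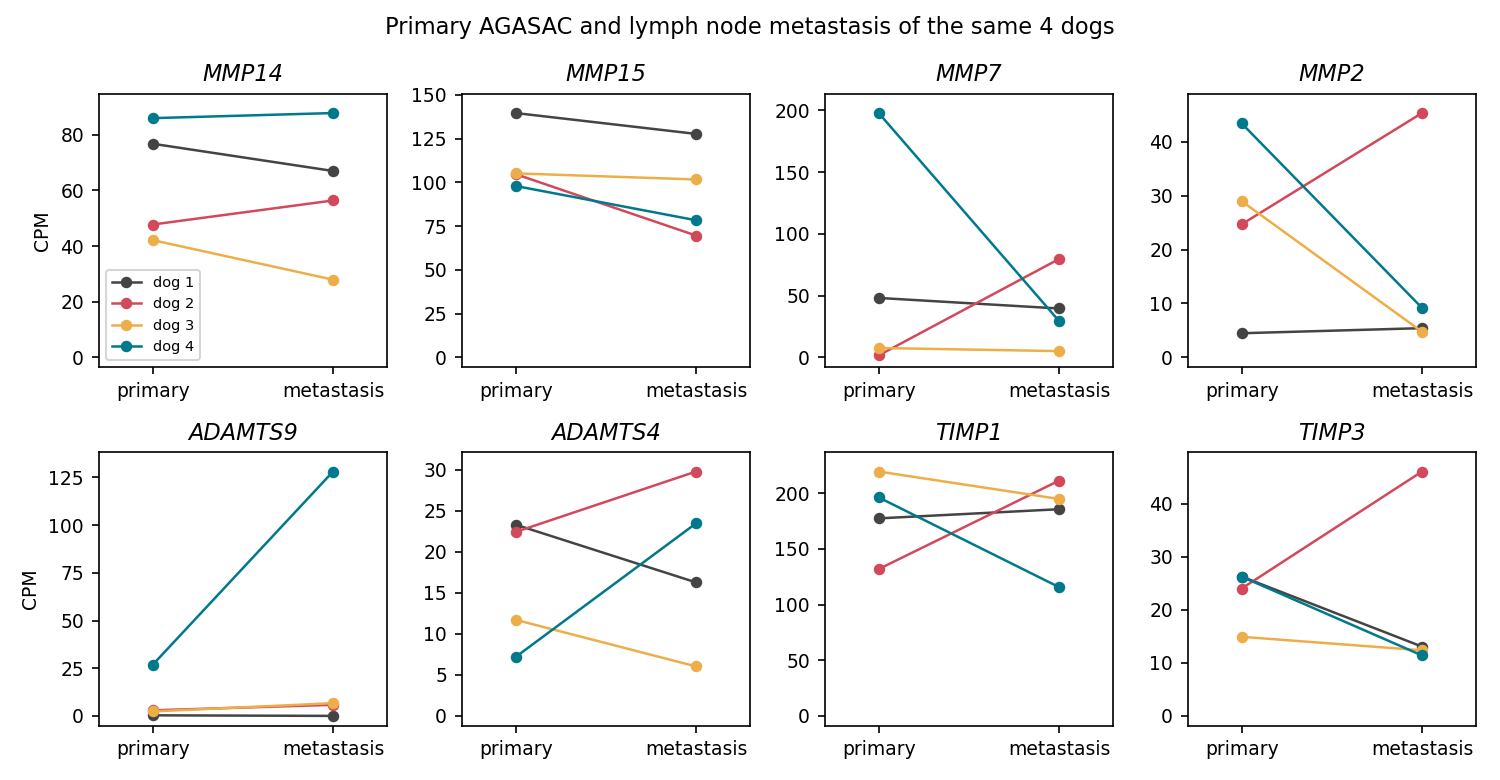
Level in CPM (y axes, linear, each panel with its own scale) of 8 genes in the primary AGASAC and the metastasis of the same dog, with 1 line for each of the 4 dogs. MMP15 is lower in the metastasis of all 4 dogs, MMP14 moves up in 2 dogs and down in 2, and MMP7 and MMP2 differ in direction between dogs. ADAMTS9 is higher in the metastasis of dogs 2 to 4, with dog 4 reaching 128 CPM, and goes from 1 read to 0 in dog 1.

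The third comparison set HGA against the 4 metastases, and it shares the HGA with the first comparison and the metastases with the second. Here 23 genes passed the filter and 7 were called, 3 higher in HGA (MMP14, ADAMTS3 and TIMP4) and 4 lower (MMP7, MMP15, ADAMTS4 and TIMP1), against 16.1% of 13195 genes tested, 8.4% higher and 7.69% lower. Without TMM factors the split of calls over all genes moved from 1109 higher and 1015 lower to 788 higher and 1383 lower, with a median of −0.26 for all genes, and 7 protease or inhibitor genes were called. Groups did not overlap for 5 of the 23 genes (MMP7, MMP14, MMP15, ADAMTS3 and TIMP1), against 16.2% of all genes tested.

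MMP14 was higher in HGA by 2.31 ± 0.35 (edgeR, adjusted p = 0.0010) and MMP15 lower by −2.62 ± 0.36 (adjusted p = 4.0e-04) on the log2 scale, and the MMP14 to MMP15 ratio in metastases was 0.275 to 1.12. ADAMTS3 had a single read over all 4 metastases and 1377 reads over the 10 HGA, a ratio of 650 in pooled CPM with an exact Poisson 95% interval of 117 to 25676 that covers counting error only (edgeR, adjusted p = 4.9e-05). MMP7 was read at 39.6, 79.6, 5.08 and 29.5 CPM in metastases 1 to 4, at least 30.5-fold above the floor in HGA by the mean, or 19.6-fold without metastasis 2 (adjusted p = 0.0018 with all samples). TIMP4 had 0 reads in all 4 metastases, a mean at least 7.65-fold higher in HGA (adjusted p = 0.040).

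ADAMTS4 was 16.3, 29.8, 6.03 and 23.5 CPM in metastases 1 to 4 and lower in HGA by −3.45 ± 0.74 (adjusted p = 0.020). TIMP1 was lower in HGA by −1.37 ± 0.29 (adjusted p = 0.016), and all 4 metastases lay above all 10 HGA. ADAMTS1, called against primary AGASAC, was 21.7, 12.9, 5.08 and 8.24 CPM in metastases and not called here (0.82 ± 0.44, adjusted p = 1), and the difference between both results was not tested beyond the comparison of metastases with their primary tumors, which gave 0.52 ± 0.46.

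MMP14, MMP15, MMP7 and ADAMTS3 were called after every single library was left out in turn. TIMP1 was not called without metastasis 1, 2 or 3 (adjusted p = 0.057, 0.080 and 0.071), nor was ADAMTS4 without metastasis 1, 2 or 4 (adjusted p = 0.052, 0.11 and 0.080). TIMP4 was called in only 3 of the 14 such fits, those without HGA 2, HGA 4 or HGA 10, with adjusted p between 0.00997 and 0.115 over all 14.

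Genes around the proteases were counted from lists of their activators, partners and substrates. In the plasminogen system, whose product plasmin activates several pro-MMPs, 4 of 7 genes in the table were tested between HGA and primary AGASAC, and 1 was higher and 1 lower in HGA. PLAT, the tissue-type plasminogen activator, was at 1.75 to 31.4 CPM in HGA and 16.7 to 792 CPM in primary AGASAC (−4.39 ± 0.71, adjusted p = 2.0e-04), and 79.1 to 1733 CPM in metastases. SERPINE2, an inhibitor of plasminogen activators, was higher in HGA (1.62 ± 0.40, adjusted p = 0.018).

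Of the 6 tested genes that activate or otherwise regulate MMPs, 0 were called. BSG, an inducer of MMP synthesis, missed the fold threshold at 0.96 ± 0.22 (adjusted p = 0.010). SPOCK1, a proteoglycan of this list that did not pass the filter, had 23.5 to 403 CPM in 9 of 10 HGA and 0 reads in HGA 10 and in all 15 AGASAC samples, a mean at least 251-fold higher in HGA than the floor in primary AGASAC. Of 8 tested ADAM genes, ADAM10, a membrane-bound sheddase, was higher in HGA (1.18 ± 0.25, adjusted p = 0.0038) and the other 7 were not called. Of 3 tested ADAMTS-like genes, which lack the protease domain, 0 were called.

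Among the tested matrix substrates, the laminin chain LAMA3 was higher in HGA (3.01 ± 0.47, adjusted p = 1.3e-04) and fibronectin FN1 was lower (−2.73 ± 0.53, adjusted p = 0.0016). VCAN, the versican cleaved by ADAMTS1 and ADAMTS4, was not called (−0.84 ± 0.41, adjusted p = 0.95), nor were the fibrillar collagen genes COL1A1, COL1A2 and COL3A1 (−0.95 ± 0.39, −0.68 ± 0.36 and 0.19 ± 0.36).

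The level of several of these genes is known to follow the stroma, so 14 genes with a mean of at least 10 CPM were related to the summed fibroblast markers over the samples of each tumor type, on the log2(CPM + 1) scale. The sum adds CPM, so the abundant matrix genes among the markers weigh most. In HGA the medians of COL1A1, DCN and COL3A1 were 1183, 796 and 516 CPM, against 10.96 and 23.8 CPM for FAP and POSTN. This design gave 27 relations, as MMP7 was constant at 0 in HGA, with permutation p-values adjusted by Benjamini-Hochberg over all 27. In HGA (n = 10), MMP2 rose with the fibroblast sum (Pearson r = 0.827, permutation p = 0.0027, adjusted p = 0.037; Spearman rho = 0.842, permutation p = 0.0037, adjusted p = 0.0999), with r = 0.691 after leaving out the 2 samples farthest from the median sum. TIMP2 in HGA behaved alike (r = 0.808, permutation p = 0.0044, adjusted p = 0.039; rho = 0.794, permutation p = 0.0090, adjusted p = 0.12), with r = 0.676 without those samples.

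In primary AGASAC (n = 11), MMP2 gave r = 0.835 (permutation p = 0.0027, adjusted p = 0.037) and rho = 0.655 (permutation p = 0.033, adjusted p = 0.23). This relation rests on the extreme samples, as r fell to 0.478 without the 2 farthest, of which primary AGASAC 1 had both the lowest sum and the lowest MMP2. TIMP2 in primary AGASAC gave r = −0.149 (permutation p = 0.65, adjusted p = 0.97). ADAMTS4 in HGA and ADAMTS3 in primary AGASAC had means of 1.79 and 0.557 CPM, too few reads for their relations to be read. The other called genes had r between −0.686 (ADAMTS1) and 0.507 (TIMP1) in HGA and between −0.446 (MMP15) and 0.0525 (TIMP1) in primary AGASAC, and 0 of these relations passed the adjustment over all samples of a group. By Spearman's rho, 0 of the 27 relations passed. Within the larger file-name series of each tumor, MMP2 gave r = 0.889 in HGA (n = 9) and 0.719 in primary AGASAC (n = 7), and TIMP2 gave 0.793 in HGA. Of these, MMP2 in HGA passed (exact permutation, adjusted p = 0.021), and MMP2 in primary AGASAC and TIMP2 in HGA did not (exact permutation, adjusted p = 0.35 and 0.072). MMP15 in primary AGASAC, which did not pass over all 11 samples, passed there with r = −0.890 (exact permutation, n = 7, adjusted p = 0.040), and r was −0.781 without the 2 farthest samples. Its rho was −0.893 (exact permutation, adjusted p = 0.17).

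**Figure D5:**
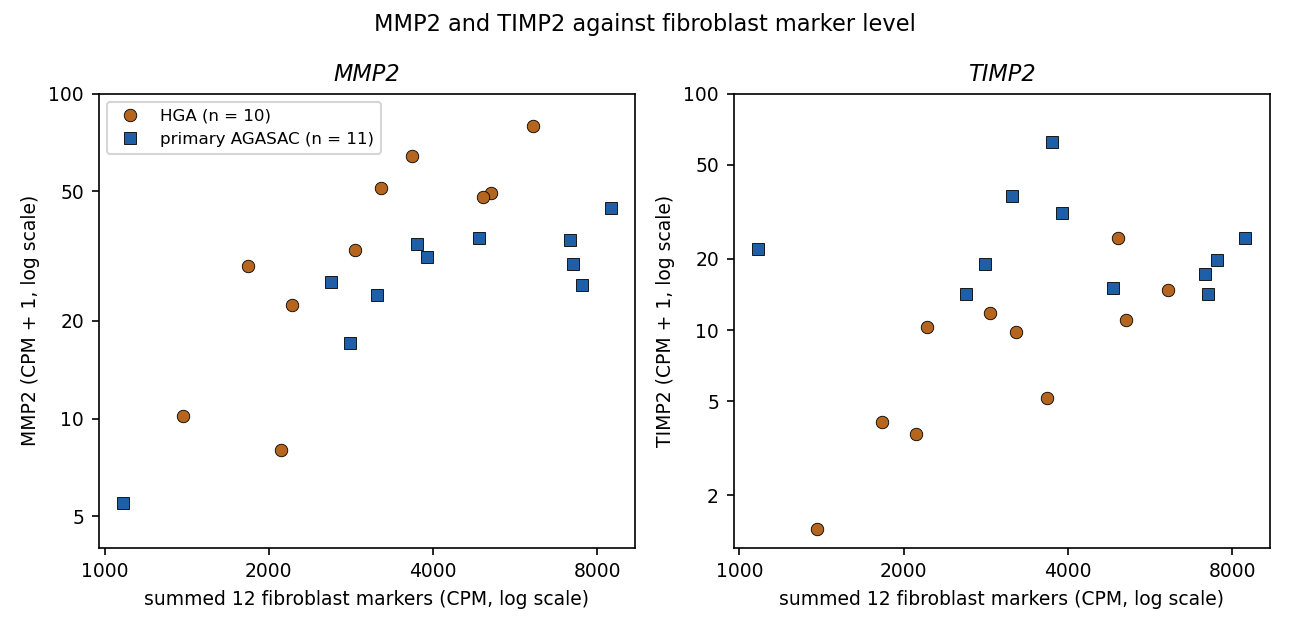
MMP2 (left) and TIMP2 (right) as CPM + 1 against the summed CPM of 12 fibroblast markers, all axes on log scales, with 1 point for each of 10 HGA and 11 primary AGASAC. In HGA both genes are higher in samples with more fibroblast marker reads (r = 0.827 and 0.808), whereas the primary AGASAC points of TIMP2 show no slope (r = −0.149).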

How the data were processed

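The authors trimmed the QuantSeq 3′ reads with Cutadapt, aligned them to CanFam3.1 with STAR and counted them per gene with featureCounts, in a second round with gene ends extended by 2 kilobases; multi-mapped reads were shared among their locations. The deposited table holds whole-number counts for 25 samples, which were used here, and the authors' size-factor-normalized signal, which was not. Its columns of fold changes and p-values from the authors' own comparison were not used. Groups came from the sample titles.

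Levels are given as CPM, scaled by TMM factors computed across the 25 libraries. Differences were tested with the quasi-likelihood test of edgeR 4.0.16 (R 4.3.3) on the counts of the groups compared, after filterByExpr (minimum count 10, minimum total 15), with Benjamini-Yekutieli adjustment over all genes tested; a call needed both an adjusted p up to 0.05 and a log2 fold change of 1 or more in either direction. SE is the fold change divided by the square root of F, and intervals are approximate. Correlations used 100000 resamples, two-sided. On simulated data, edgeR called 26, 45 and 82 of 100 genes changed by a log2 fold change of 2. These values are for metastases against matched primary tumors, HGA against metastases and HGA against primary AGASAC. The changed genes were drawn from those above a minimum level, and all libraries were simulated independently. Alternatives were DESeq2 1.42.0, other scalings, filters, covariates, blocks and left-out libraries.

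Per the labels, same-numbered metastases and primary tumors come from 1 dog; where nothing states separate animals, p-values measure only the spread between these samples. Within the 4 pairs, deviations from the group means correlated at 0.699, 0.489, 0.547 and 0.422 over genes. The genes described and the lists were chosen with earlier results of these data known. Genes named in full were those called in any comparison, TIMP1 to TIMP4 and the highest gene by mean of each functional group; from other lists, at most 3 called genes in each direction were named, besides BSG, SPOCK1, VCAN and the collagen genes, which were chosen after their values were seen. PLG, A2M, MMP10, MMP20, MMP23 and MMP26 were not analysed here. A result on a matrix substrate is not reported here.

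With 1 read worth 0.157 to 0.640 CPM by library size alone, counting error limits genes below about 1 CPM, and floors and intervals cover counting error only. No pair of libraries of a group agreed within sampling noise.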

Additional observations from a re-analysis of the deposited data

Results flagged for a closer look

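A sample lay far from the other samples of its group by Dixon's test in 9 of 38 groups checked. These were groups of HGA and of metastases, over the 17 genes named by rule and 3 genes (MMP9, MMP12 and ADAMTS9) added after their values were seen. Primary AGASAC values were not among the groups checked, although single samples lay apart there too. ADAMTS4 in primary AGASAC 5, for example, was at 106 CPM, and no other primary AGASAC exceeded 23.3 CPM. Chance alone flags about 1 in 20 groups of normally distributed values chosen without looking. The number here cannot be set against that rate, since CPM values need not be normally distributed. In addition, 3 of the 9 are on the added genes and in 3 the other samples are all at 0.

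In HGA, MMP14 was at 546 CPM in HGA 4, where the other HGA ended at 343 CPM, and MMP12, the macrophage elastase, was at 21.7 CPM in HGA 2, where the others ended at 3.64 CPM. MMP1 was at 0.614 CPM in HGA 6, a count of 3 reads, and at 0 in the other HGA.

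In metastases, metastasis 2 stood apart in MMP2, at 45.3 CPM against at most 9.19 CPM in the others, and in TIMP3, at 46.1 CPM against at most 13.1 CPM. Its summed fibroblast markers, 13621 CPM, were the highest of the 4 metastases, and their part in both levels was not tested. ADAMTS3 was at 0.264 CPM in metastasis 2, which is a single read, and at 0 in the others. Metastasis 4 stood apart in MMP1 (12.7 CPM, others 0), in MMP9, a gelatinase of granulocytes and macrophages (24.4 CPM, others at most 4.22 CPM), and in ADAMTS9 (128 CPM, others at most 6.67 CPM). The primary tumor of dog 4 had the highest MMP1 and MMP9 levels of the 11 primary AGASAC, at 8.57 and 30.1 CPM, and the second highest ADAMTS9 level, at 26.8 CPM.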

How the results depend on the processing

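Of the genes called between HGA and primary AGASAC, all 6 were called in each of the 21 fits that left out a single library, and the number called ranged from 6 to 8, as MMP7, TIMP2 or ADAMTS10 joined (8 without HGA 4, 8 or 10). The count was 13 by DESeq2, and 0, 1 and 1 within extraction batches 5, 6 and 8, where fewer samples were compared. Against metastases it ranged from 4 to 7 without single libraries (4 without metastasis 2) and was 2 of 23 with the replicate block (5.77% of all genes tested). The replicate block pairs the same dogs only between metastases and primary tumors; HGA and AGASAC samples share only a number, and with it 8 of 19 genes were called against primary AGASAC (21.7% of all genes tested). Between metastases and matched primary tumors 0 protease or inhibitor genes were called in every setting run, although changes of moderate size can be missed there. Over all genes, 3032 were called against primary AGASAC and 262, 637 and 338 within batches 5, 6 and 8, while 2124 were called against metastases, 3536 with Benjamini-Hochberg adjustment, 3211 by DESeq2 and 762 with the replicate block. The relations with fibroblast markers that passed numbered 3, 3 with library size alone, 3 with a pseudocount of 0.5 and 2 within 1 file-name series, where MMP2 in HGA passed again, MMP15 in primary AGASAC (r = −0.890) was gained, and MMP2 in primary AGASAC and TIMP2 in HGA were lost.

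Directions changed only for values that were not called, and the cause was not tested. The log2 fold change of TIMP3 against primary AGASAC was 0.0071 with the strict filter, 0.029 with DV200, 0.24 with batch as covariate, 0.55 and 0.17 within batches 5 and 8, and 0.013 within the file-name series, where MMP11 was 0.0083; in batch 5, MMP19 was −0.66 and ADAMTS2 −0.0022. Between metastases and primary tumors, the 25-sample fit and the fit with all 11 primary tumors gave log2 fold changes of 0.033 and 0.028 for MMP14, −0.28 and −0.28 for ADAMTS4, −0.014 and −0.016 for ADAMTS10, 0.27 and 0.27 for TIMP1, −0.19 and −0.19 for TIMP2, and 0.011 and 0.017 for TIMP3; DV200 and the replicate block gave −0.0011 and −0.024 for ADAMTS2 and −0.023 and −0.0027 for TIMP2. Against metastases, the replicate block gave 0.43 for MMP11 and 0.15 for TIMP3, and the strict filter 0.034 for TIMP3. Leaving out single libraries moved the metastasis to primary difference over −0.069 to 0.44 (ADAMTS10), −0.42 to 0.45 (ADAMTS2), −0.079 to 0.54 (ADAMTS4), −1.23 to 0.34 (MMP11), −0.33 to 0.16 (MMP14), −1.39 to 1.03 (MMP7), −0.15 to 0.12 (TIMP1), −0.39 to 0.38 (TIMP2) and −0.90 to 0.075 (TIMP3), the HGA to metastasis difference over −0.76 to 0.029 (ADAMTS5), −0.53 to 0.40 (MMP11) and −0.23 to 0.73 (TIMP3), and the HGA to primary difference of TIMP3 over −0.15 to 0.13. Pearson correlations with fibroblast markers that changed sign were, with library size alone, 0.028 (ADAMTS4), 0.028 (ADAMTS5) and 0.011 (ADAMTS10) in HGA and 0.032 (MMP14), 0.067 (ADAMTS5) and 0.10 (ADAMTS10) in primary AGASAC, and within the file-name series −0.019 (MMP15), 0.11 (ADAMTS4), 0.044 (ADAMTS5) and 0.057 (ADAMTS10) in HGA and 0.27 (MMP7), 0.40 (MMP14), 0.14 (ADAMTS4), −0.22 (ADAMTS9) and −0.12 (TIMP1) in primary AGASAC.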

Other observations

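VEGFC, the lymphatic growth factor that ADAMTS3 is known to activate, was looked up after the ADAMTS3 result was seen, together with CCBE1, FLT4, RELN, LOX and CTSK, and all values after ± are SE. VEGFC was at 70.2, 102 and 143 CPM in the lowest, median and highest HGA and at 0.864, 3.25 and 7.22 CPM in primary AGASAC, with 2.54 to 9.22 CPM in metastases. Every HGA exceeded every AGASAC sample, with a log2 fold change against primary AGASAC of 4.88 ± 0.29 (edgeR, adjusted p = 6.8e-11). CCBE1, the cofactor of that activation, was scarcely read, at no more than 4.25 CPM in any HGA and 1.94 CPM in any primary AGASAC, with a median of 0 in both. FLT4, which encodes the VEGFC receptor, was at 14.8 to 59.8 CPM in HGA and 8.54 to 23.7 CPM in primary AGASAC (1.06 ± 0.24, adjusted p = 0.0081), close to the fold threshold. Against metastases, at 15.9 to 25.2 CPM, FLT4 was not called (0.62 ± 0.34). RELN, another ADAMTS3 substrate, the collagen cross-linking enzyme LOX and the cathepsin CTSK were not called (1.46 ± 0.67, −0.85 ± 0.63 and 0.37 ± 0.32).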
